A study of Sus scrofa with 12 samples.

Results

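In peripheral blood mononuclear cells of the pig, 173 of 7480 measured genes (2.31%) had lower levels with Salmonella than in the control and about the same level when a miR-124 sponge was added to Salmonella. They were chosen from means of 4 libraries per group, on the log2 scale of the deposited values. The Salmonella mean had to lie at least 1 unit below the control mean, the sponge plus Salmonella mean had to lie within 0.4 of the Salmonella mean, and the control mean had to be at least 6. Of the 445 genes that met the conditions on the fall and on the control level, these 173 made up 38.9%. Another 239 (53.7%) were at least 0.4 higher with the sponge than with Salmonella alone, and 33 (7.42%) were at least 0.4 lower. The falls and the small sponge differences of the 173 genes are thus what chose them. They are given as a description, and no count of calls on them is read as a test.

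The study sequenced RNA of peripheral blood mononuclear cells, the fraction of blood that holds lymphocytes and monocytes, from Duroc x Landrace x Yorkshire piglets 4 weeks old. The 3 groups of 4 libraries were a miR-124 sponge plus Salmonella Typhi, Salmonella Typhi, and non-treated control, and cells were taken 12 h after treatment. A sponge is a synthetic RNA that carries binding sites for a microRNA and so competes for it with the microRNA's targets. The titles of the sponge libraries name only miR-124 and Salmonella, and the sponge was read from their descriptions. The animal behind each library is not given, so the spread between the 4 libraries of a group may be technical.

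Blood leukocytes that meet a Gram-negative bacterium such as Salmonella sense its lipopolysaccharide and switch within hours from a resting to an inflammatory programme. CD8 T cells and natural killer cells carry granzymes and kill infected cells, while monocytes make most of the first cytokines. Lymphocytes and monocytes alike express housekeeping genes for mitochondria, ribosome assembly, transcription and protein secretion. MiR-124 is a microRNA best known from neurons that has also been described in macrophages and T cells.

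Values ran on a log scale whose base was taken as 2, and the depth behind them is unknown because read counts were not used here. Over all 7480 genes the median difference was -0.02 for Salmonella minus control and -0.04 for sponge plus Salmonella minus Salmonella. In the sponge plus Salmonella columns, 67.7% of all values were tied exactly with another gene of the same column. Among the 173 genes, 311 of 692 sponge values were tied (44.9%), against 0 of 1384 values in the other 8 columns, and the part of this in the small sponge differences was not tested. The sources used do not say whether these 4 columns were made in the same way as the other 8. An effect of the sponge and a difference in how the columns were made cannot be told apart in any sponge difference given here. Whether values are scaled by gene length is not given, so levels are compared between libraries and not between genes. The pig gene tables lacked 5.33% of all symbols and 1 of the 173, TYW1B. Some keratins were not silent here, since KRT1 had a control mean of 10.45 and KRT73 one of 6.49. A total of 198 genes taken as silent in blood, such as olfactory receptors and keratins, had a median level of 4.55 and a 95th percentile of 5.03. With Salmonella, 9 of the 173 genes (5.2%) lay under that percentile, IL5RA, DSC1, MAGEF1, ZNF639, ZIC5, ZNF365, SLC35B4, ARMCX1 and TAAR1, so the size of their falls is bounded by that floor. With the sponge 12 genes lay under it, DSC1, ALK, ADORA3, ADIPOQ, ANKRD54, ZNF639, ZIC5, ZNF365, BLOC1S2, NUAK1, ZBTB16 and TAAR1, and for genes of both kinds the floor also limits the sponge difference that the rule used.

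The mean over the 173 genes was 7.42, 7.12, 7.26 and 7.53 in sponge plus Salmonella libraries 1 to 4, 7.06, 7.33, 7.31 and 7.33 in Salmonella libraries 1 to 4, and 8.74, 8.44, 8.49 and 8.51 in control libraries 1 to 4. Both treated groups lay below every control library and overlapped each other. The group means were 7.33 ± 0.18 with the sponge, 7.26 ± 0.13 with Salmonella and 8.54 ± 0.13 in the control (SD, n = 4 each). Salmonella library 1 was the lowest of its group in 98 of the 173 genes, control library 1 the highest of its group in 102, and sponge library 2 the lowest of its group in 88. Over all genes the same libraries held those places in 36.7%, 32.6% and 26.8% of genes. Many of the values below show these 3 libraries at the edge of their groups.

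**Figure D1:**
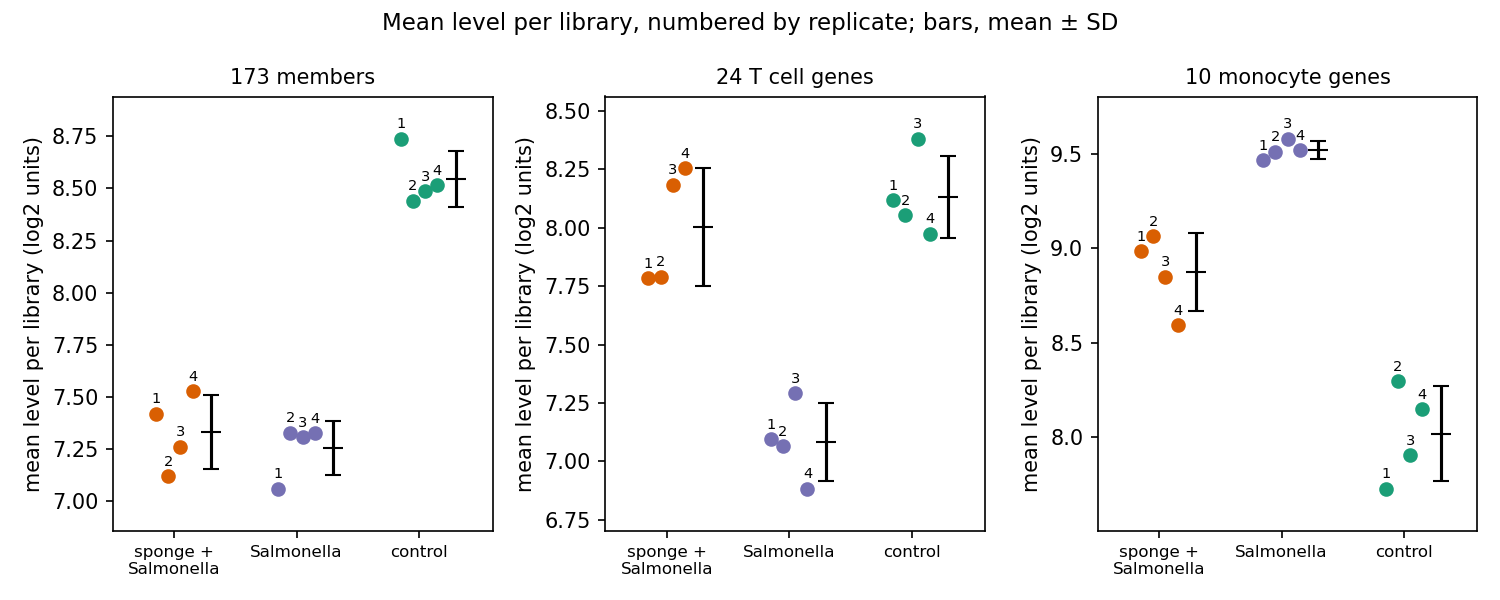
Mean level per library (log2 units, vertical axis) over the 173 genes, 24 T cell genes and 10 monocyte genes, for sponge plus Salmonella, Salmonella and control. Points are libraries numbered by replicate and bars are mean ± SD. The 173-gene means lie near 7.3 in both treated groups and near 8.5 in the control, whereas the T cell means are 8.00 with the sponge, 7.09 with Salmonella and 8.13 in the control.

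Among these genes the median Salmonella minus control difference was -1.22, with quartiles of -1.40 and -1.10 and a range of -2.83 to -1.005. If the base is 2, the median linear level with Salmonella was 0.43 of the control, and the lowest was 0.141. The median sponge plus Salmonella minus Salmonella difference was 0.09, with a range of -0.40 to 0.40, and the median sponge plus Salmonella minus control difference was -1.16. The differences with the sponge leaned slightly upward, with 112 genes above 0 and 61 below. Falls were mostly close to the threshold, with 43 genes past -1 by less than 0.1 and only 28 lower by 1.5 or more. In the control, 35 of the genes had a mean of at least 10 and 36 a mean below 7.

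**Figure D2:**
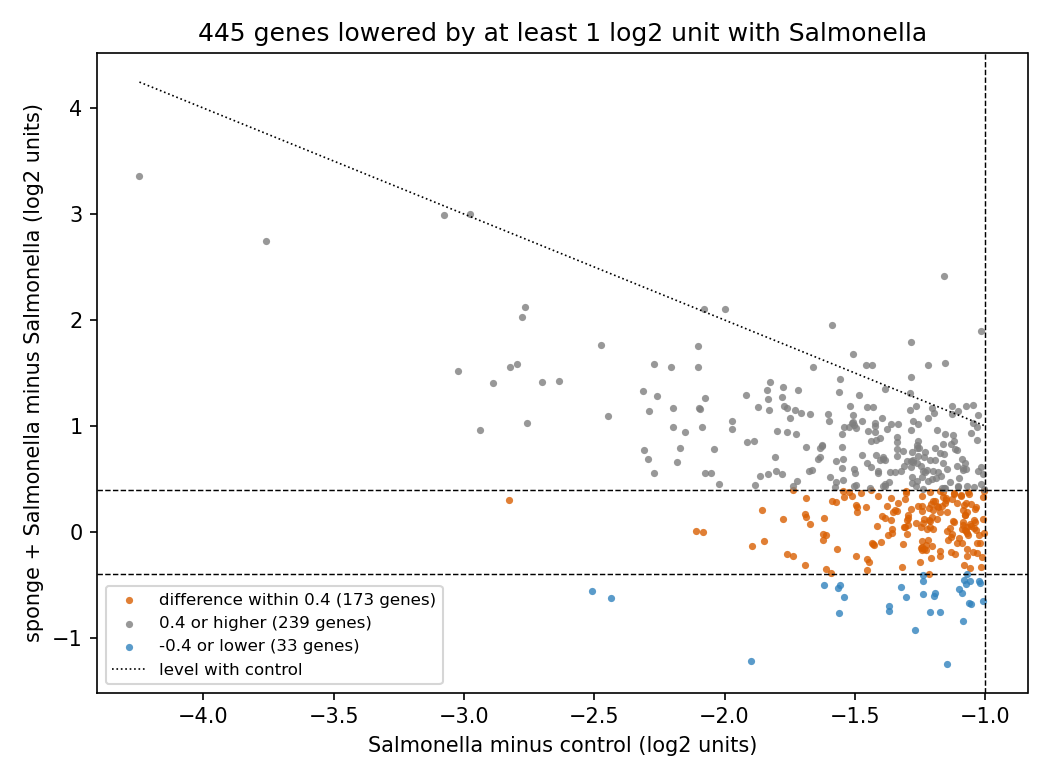
Difference of sponge plus Salmonella minus Salmonella (vertical axis, log2 units) against Salmonella minus control (horizontal axis, log2 units). Points are the 445 genes lowered by at least 1 unit with a control mean of at least 6. The 173 genes described here form the band between -0.4 and 0.4, the 239 genes above it have a median sponge difference of 0.84, and the dotted line marks a return to the control level.

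In a limma fit across all 7480 genes with Benjamini-Hochberg adjustment, all 173 were called lower with Salmonella than in the control, where 17.9% of all genes were called lower. Nothing is read from this count, since the rule used the same contrast. Between sponge plus Salmonella and Salmonella, 0 of 173 were called by limma in either direction, against 25% of all genes. At an unadjusted p below 0.05 the counts were 5 of 173, against 38.7% of all genes. For sponge plus Salmonella against control, 172 of 173 were called lower, against 23% of all genes, and the exception was SPEF2. Both comparisons with Salmonella share the Salmonella libraries, and the comparison with the control is the sum of the other two. The rule bounded the sponge difference too, so the counts with the sponge were largely fixed by the choice and nothing is read from them.

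The 4 Salmonella libraries lay below the 4 control libraries in 165 of 173 genes, where 19.9% of all genes had this order. The same count, 165, held for sponge plus Salmonella below control, where the background was 22.5%, and 161 genes had both. The sponge plus Salmonella and Salmonella libraries did not overlap in 3 genes, ATIC, RPAP2 and MPHOSPH10, against 23.8% of all genes. In each of those 3 the sponge libraries were the higher. Nothing is read from these counts either, as the rule fixed the means behind them.

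Being within 0.4 of each other is not the same as being equal, and the 95% intervals show how closely each difference was known. The median width of the interval for sponge plus Salmonella minus Salmonella was 0.97, with a range of 0.59 to 1.87. Only RCN2, CCNC and IMP4 had an interval that stayed within 0.4 on either side of 0. A bound of 0.5 held for 25 genes, a bound of 0.75 for 114 and a bound of 1 for 164. The interval crossed 0 in 168 genes. It lay above 0 in ATIC, TMEM160, ASF1A, MPHOSPH10 and DDX18.

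**Figure D3:**
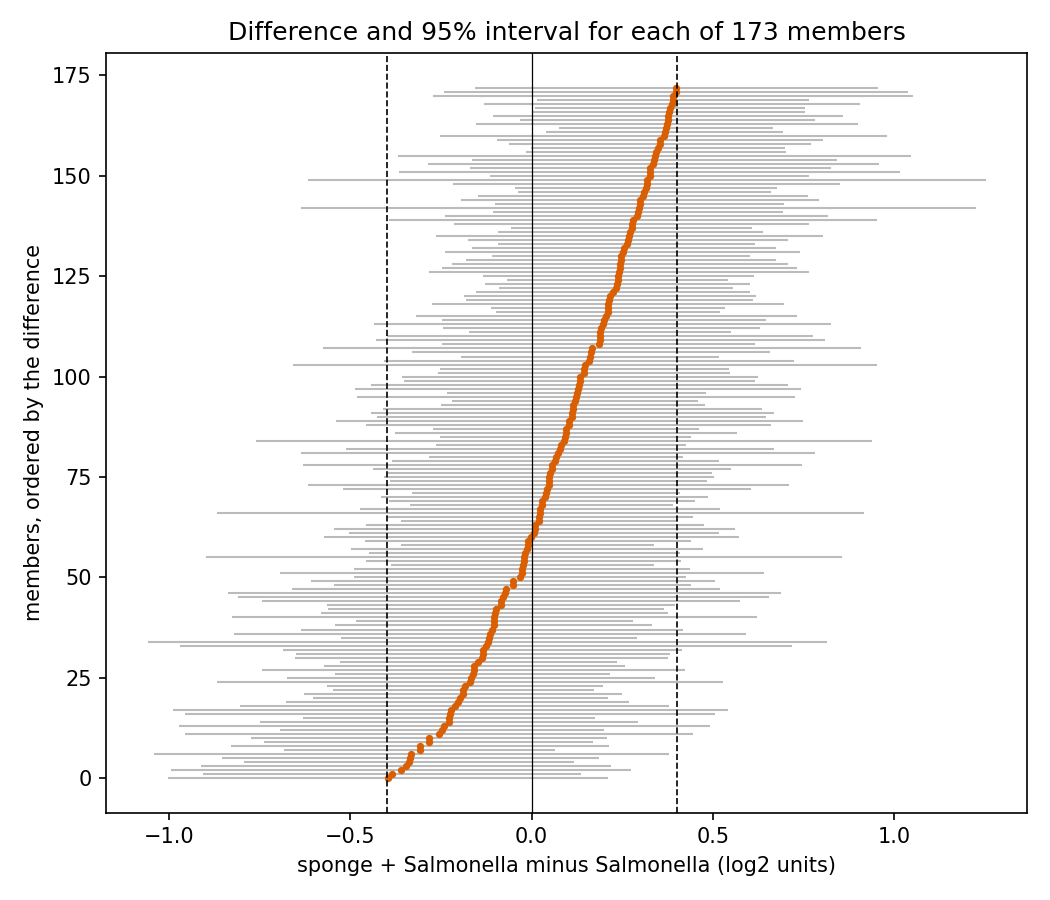
Sponge plus Salmonella minus Salmonella with its 95% interval (horizontal axis, log2 units) for each of the 173 genes, ordered by the difference (vertical axis). Dashed lines mark the limits of -0.4 and 0.4, and 138 intervals reach past the upper limit while 89 reach past the lower.

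The rule was also applied to 11 libraries at a time and the twelfth was read afterwards, as a description, since the mean it was set against had still served in the choice. A left-out Salmonella library lay below the control mean in 98.0% to 100% of the genes chosen, against 50.5% to 55.2% of all genes, with a median difference of -1.07 to -1.44 over the 4 choices. The Salmonella mean lay below a left-out control library in 98.8% to 100% of the genes chosen, against 49.5% to 51.9% of all genes, with medians of -1.05 to -1.39. A left-out sponge library minus the Salmonella mean had medians of 0.28, -0.14, 0.04 and 0.30 for libraries 1 to 4. Between 52.3% and 70.3% of the genes chosen lay within 0.4 there, and 55.9% to 60.5% of all genes did, so the shares of the genes chosen lay on both sides of the background. Of the 173 genes, 74 were chosen in all 12 such rounds and 1 in fewer than 6.

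The first set holds genes of lymphocytes. Both chains of the CD8 coreceptor, which binds class I major histocompatibility molecules beside the T cell receptor, were among the 173 genes, as were granzyme A and cathepsin W of cytotoxic cells. CD8A (chromosome 3, 57999228 to 58029768 in Sscrofa11.1) had levels of 9.70, 10.49, 10.57 and 10.38 with the sponge, 9.30, 10.65, 9.56 and 10.04 with Salmonella, and 11.56, 11.02, 12.27 and 11.64 in the control. All treated libraries lay below the lowest control, and the 2 treated groups overlapped. Salmonella minus control was -1.74 ± 0.30 (SE) and sponge plus Salmonella minus Salmonella was 0.40 with a 95% interval of -0.24 to 1.04. CD8A sits at the edge of the rule.

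CD8B (chromosome 3, 57968358 to 57986450), the beta chain, had 5.26, 5.58, 5.63 and 6.11 with the sponge, 4.93, 5.80, 6.63 and 6.55 with Salmonella, and 7.16, 7.11, 7.31 and 7.61 in the control. Its Salmonella minus control difference was -1.32 ± 0.33 and its sponge difference -0.33, with an interval of -1.04 to 0.38. The control libraries again stood above all 8 others. For both chains, a smaller number of CD8 cells and less RNA per cell cannot be told apart in these bulk samples, and this holds for each gene below.

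GZMA, the granule protease granzyme A, had 11.31, 10.88, 10.69 and 11.15 with the sponge, 10.51, 11.72, 11.07 and 11.27 with Salmonella, and 12.76, 11.88, 12.44 and 12.30 in the control. Salmonella library 2 came close to the lowest control library. The difference was -1.203 ± 0.24 for Salmonella and -0.14 with the sponge (95% interval -0.65 to 0.38). CTSW, cathepsin W, had 8.32, 8.74, 8.25 and 9.03 with the sponge, 8.04, 8.41, 8.13 and 8.35 with Salmonella, and 9.63, 9.21, 9.49 and 9.08 in the control. Sponge library 4 lay just under the lowest control library.

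The other lymphocyte genes were regulators of signalling and shape. SLA2, an adaptor that dampens antigen receptor signalling, had 6.18, 6.37, 6.32 and 6.79 with the sponge, 5.08, 6.44, 6.93 and 6.93 with Salmonella, and 8.13, 7.83, 7.97 and 8.12 in the control. One Salmonella library, number 1, stood far below the other 3. PTPN4, a tyrosine phosphatase, differed by -1.49 ± 0.17 with Salmonella, EVL, an actin regulator, by -1.30 ± 0.26, and TOB1, an antiproliferative protein of resting T cells, by -1.29 ± 0.23. Their sponge differences were 0.24, 0.11 and 0.13. In all 8 lymphocyte genes both treated groups lay wholly below the control, as in 161 of the 173 genes, an order that the rule largely fixed.

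CD8A and CD8B were 2 of 17 genes of a T cell marker list that met the conditions on the fall and on the control level, and the other 15 were at least 0.4 higher with the sponge than with Salmonella alone. The list has 24 measured genes, with 20 called higher and 0 called lower in sponge plus Salmonella against Salmonella and a median difference of 0.83. Of all genes, 11.9% were called higher and 13.2% lower in that comparison. Its mean level was 8.00 ± 0.25 with the sponge, 7.09 ± 0.17 with Salmonella and 8.13 ± 0.18 in the control. Libraries ranged from 7.78 to 8.26 with the sponge, from 6.88 to 7.29 with Salmonella and from 7.98 to 8.38 in the control. Of the natural killer list, with 14 measured genes, GZMA and CTSW were among the 173 (14.3%, against 2.31% of all genes). Of its other lowered genes, 4 were at least 0.4 higher with the sponge and 1 was lower still. Of the B cell list, 6 of 12 measured genes met the conditions on the fall and on the control level, and all 6 were at least 0.4 higher with the sponge. Of all 7480 genes, 445 met these conditions, and 239 of the 445 (53.7%) were at least 0.4 higher with the sponge.

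Monocyte markers moved the other way. Their list mean was 8.87 ± 0.21 with the sponge, 9.52 ± 0.05 with Salmonella and 8.02 ± 0.25 in the control, over 10 measured genes of which 7 were called higher and 0 lower with Salmonella, against 15.7% and 17.9% of all genes. Library values ranged from 8.59 to 9.06 with the sponge, from 9.47 to 9.58 with Salmonella and from 7.73 to 8.30 in the control. None of the 10 was among the 173 genes. The part of cell composition in the values of the 173 genes was not tested. Of the T cell defining markers, CD3D had means of 5.34 with the sponge, 4.53 with Salmonella and 4.30 in the control, the last 2 of which lay under the median of the silent genes. CD3E had means of 7.82 with the sponge, 6.68 with Salmonella and 7.79 in the control.

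**Figure D4:**
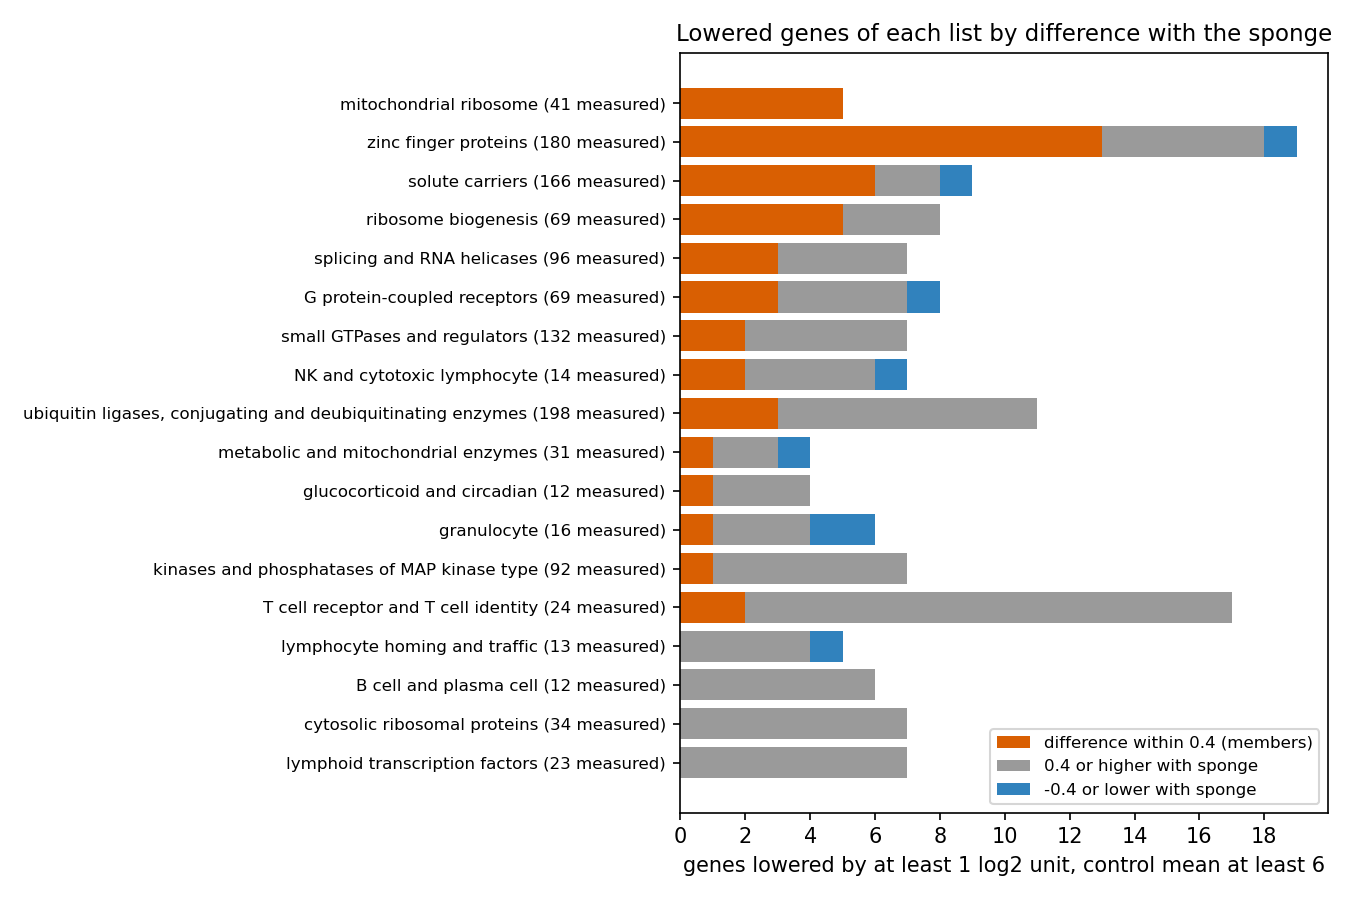
Number of genes per list (horizontal axis) lowered by at least 1 log2 unit with Salmonella and with a control mean of at least 6. Bars are split by the sponge plus Salmonella minus Salmonella difference, and lists with few such genes are not drawn. Of the lowered T cell genes 2 lie within 0.4 and 15 are higher with the sponge, and of the lowered genes of the mitochondrial ribosome all 5 lie within 0.4, against 38.9% of all 445 lowered genes.

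Receptors of other leukocytes included the gene with the lowest difference. NLRP12 (chromosome 6, 56402617 to 56425038), a NOD-like receptor of myeloid cells that restrains inflammatory signalling, had 5.78, 5.57, 5.81 and 5.99 with the sponge, 5.12, 5.71, 5.44 and 5.68 with Salmonella, and 7.96, 8.46, 8.03 and 8.80 in the control. The control libraries stood far above both treated groups. Salmonella minus control was -2.83 ± 0.23 and the sponge difference was 0.30 (95% interval -0.19 to 0.79). P2RY11, a receptor for extracellular ATP, had 6.55, 6.37, 7.02 and 7.45 with the sponge, 6.51, 7.43, 6.94 and 7.06 with Salmonella, and 9.28, 8.57, 8.82 and 8.84 in the control. Its differences were -1.89 ± 0.26 and -0.13.

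IL5RA, the interleukin-5 receptor chain of eosinophils and basophils, had 4.69, 4.80, 5.10 and 5.75 with the sponge, 5.36, 4.81, 4.56 and 5.11 with Salmonella, and 6.55, 7.34, 6.62 and 6.42 in the control. Both treated groups lay wholly below the control, with means of 5.09 with the sponge and 4.96 with Salmonella, near the 95th percentile of the silent genes. ADORA3, the adenosine A3 receptor, differed by -1.49 ± 0.34 with Salmonella and by -0.22 with the sponge. RGS10, which shortens G protein signals, differed by -1.02 ± 0.24, and its sponge difference was -0.33. Over the set of 7 genes, which also holds the kinase PRKCZ, the median sponge difference was -0.13, with 3 above 0 and 4 below. The granulocyte marker list holds IL5RA. Its means were 6.70 ± 0.25 with the sponge, 6.82 ± 0.32 with Salmonella and 7.38 ± 0.24 in the control. Of its 16 measured genes, 8 were called lower and 2 higher with Salmonella, so the mean joins genes that moved in opposite directions. IL5RA was 1 of 6 on the list that met the conditions on the fall and on the control level, with a sponge difference of 0.13. FCER1A, ALOX15 and CPA3 were higher with the sponge, by 1.515, 1.55 and 0.71. CEBPE and RETN were lower still, with sponge differences of -0.76 and -0.61. The part of the list in the IL5RA values was not tested.

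Transcription factors and zinc finger proteins were the largest of the 13 sets, with 22 genes. Their median difference was -1.14 with Salmonella and 0.09 with the sponge, and 18 of 22 had both treated groups wholly below the control, against 161 of all 173. ZNF260 (chromosome 6, 45858074 to 45882107), a zinc finger protein, had 6.27, 5.96, 5.85 and 6.18 with the sponge, 5.50, 6.53, 6.03 and 6.17 with Salmonella, and 8.59, 7.82, 8.10 and 8.16 in the control. Its sponge and Salmonella means differed by 0.01, with an interval of -0.50 to 0.52. XBP1, the transcription factor of the unfolded protein response and of plasma cells, had 11.06, 11.07, 11.05 and 11.13 with the sponge, 10.66, 11.16, 10.79 and 11.26 with Salmonella, and 12.20, 11.58, 12.23 and 12.02 in the control. The sponge libraries were nearly equal to each other.

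GFI1, a repressor that guides lymphoid and myeloid development, scattered most. It had 5.62, 6.48, 6.08 and 6.55 with the sponge, 4.76, 7.30, 6.32 and 6.83 with Salmonella, and 8.08, 7.08, 8.18 and 7.58 in the control. Salmonella library 2 lay above control library 2, so these groups overlapped. The Salmonella minus control difference was -1.43 ± 0.44, and -0.91 without Salmonella library 1. The sponge difference was -0.12, with an interval of -1.06 to 0.82. ZBTB16, the PLZF factor of innate-like T cells, differed by -1.24 ± 0.31 with Salmonella, also with overlap, and its sponge difference was -0.08.

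Factors of broad use were close to the threshold. FOXJ2, a forkhead factor, differed by -1.08 ± 0.14 with Salmonella and by 0.21 with the sponge. SRF, which drives actin and immediate early genes, was the nearest inside at -1.0048 ± 0.23. MEF2C, a factor of lymphocyte and muscle gene control, differed by -1.06 ± 0.28 with Salmonella, but sponge library 1, at 8.04, lay above the lowest control library, at 7.86. ZNF22 differed by -1.07 ± 0.17 with Salmonella and by 0.19 with the sponge. On the family list of zinc finger proteins, 13 of 180 measured genes (7.22%) were among the 173, against 2.31% of all genes, with 5 others lowered and higher with the sponge. The share of all genes also counts those with a control mean below 6, which the rule could not choose. The control mean was 6.15 on the list and 6.14 over all genes. The 13 include ZDHHC1, ZDHHC9 and ZCCHC17, so the list is not limited to transcription factors. That list had 48 called lower, 17 called higher and 115 not called with Salmonella, against 17.9% called lower and 15.7% called higher of all genes. Its median difference was -0.09, against -0.02 over all genes.

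Chromatin and transcription genes formed a set of 7, all above 0 with the sponge, with a median sponge difference of 0.32. HDAC1, a histone deacetylase, had 11.18, 10.39, 10.61 and 11.28 with the sponge, 10.01, 11.28, 10.95 and 10.82 with Salmonella, and 12.31, 11.80, 11.65 and 11.79 in the control. Salmonella library 1 was the lowest of all 12. SMARCE1, a subunit of the BAF chromatin remodeller, had 8.92, 7.95, 7.90 and 8.01 with the sponge, 6.96, 7.90, 8.26 and 8.37 with Salmonella, and 10.02, 8.82, 9.39 and 9.43 in the control. Sponge library 1 lay above control library 2.

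ASF1A, a chaperone of histones H3 and H4, and HIRIP3, a partner of the HIRA histone chaperone, differed by -1.18 ± 0.18 and -1.16 ± 0.19 with Salmonella. Both had sponge differences near the upper limit, 0.39 for ASF1A and 0.38 for HIRIP3. MED10 and CCNC, subunits of the Mediator complex and its kinase module, had sponge differences near 0, with 0.08 for MED10 and 0.03 for CCNC. RPAP2, a phosphatase of the RNA polymerase II tail, had 7.06, 6.96, 7.11 and 7.03 with the sponge, 6.54, 6.89, 6.83 and 6.62 with Salmonella, and 8.02, 7.87, 7.60 and 8.01 in the control. Its 3 groups did not overlap, and the sponge libraries stood between the other groups. The chromatin regulator list held 70 measured genes, of which 10 were called lower, 8 higher and 52 not called with Salmonella, against 17.9% lower and 15.7% higher of all genes. In sponge plus Salmonella against Salmonella, 6 were called lower, 9 higher and 55 not called, against 13.2% lower and 11.9% higher of all genes. The list's median sponge difference was 0.08.

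Ribosome assembly genes formed a set of 6. IMP4, a protein of the U3 ribonucleoprotein that processes ribosomal RNA, had 10.05, 9.35, 9.53 and 9.74 with the sponge, 9.54, 9.79, 9.65 and 9.79 with Salmonella, and 11.08, 10.75, 10.51 and 10.70 in the control. The 2 treated groups covered the same range, and the sponge difference was -0.02, with an interval of -0.39 to 0.34. MPHOSPH10, a partner of IMP4 in that particle, had 8.97, 8.88, 9.29 and 9.27 with the sponge, 8.60, 8.72, 8.81 and 8.81 with Salmonella, and 10.14, 9.69, 9.70 and 9.88 in the control. Here every sponge library was above every Salmonella library and below every control. The sponge difference was 0.37 (95% interval 0.04 to 0.69).

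DDX18, a nucleolar RNA helicase, had 9.86, 9.36, 9.84 and 10.17 with the sponge, 9.17, 9.51, 9.53 and 9.50 with Salmonella, and 10.67, 10.50, 10.24 and 10.32 in the control. Its Salmonella minus control difference, -1.0048 ± 0.17, only just met the rule, and it was the 1 gene of the 173 chosen in fewer than 6 of 12 rounds with a library left out. BMS1, a GTPase of small subunit assembly, differed by -1.15 ± 0.19 with Salmonella and by 0.30 with the sponge. TEX10 and the nucleoplasmin NPM3 had sponge differences of 0.12 and 0.04. On the ribosome biogenesis list of 69 measured genes, 5 (7.25%) were among the 173 and 3 other lowered genes were higher with the sponge. Its control mean was 7.48, against 6.14 over all genes, and the part of the control level in this share was not tested. The list had 21 called lower, 8 higher and 40 not called with Salmonella and a median of -0.32, against 17.9% lower and 15.7% higher of all genes and a median of -0.02. Of the 34 measured cytosolic ribosomal proteins 0 were among the 173, where 2.31% of all genes were. The 7 that met the conditions on the fall and on the control level were all at least 0.4 higher with the sponge, against 53.7% of all 445 such genes.

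RNA processing and nuclear transport gave 6 genes. SNRPF, a core protein of spliceosomal particles, had 10.71, 10.01, 10.09 and 10.70 with the sponge, 9.996, 10.52, 10.49 and 10.39 with Salmonella, and 11.94, 11.43, 11.40 and 11.44 in the control. Both treated groups spanned the same levels, with a sponge difference of 0.03. RAN, the GTPase of nuclear import and export, differed by -1.07 ± 0.21 with Salmonella and by -0.01 with the sponge. LSM14A, a processing body protein, differed by -1.13 ± 0.16 with Salmonella and by 0.31 with the sponge. Outside this set, ZCCHC17, a zinc knuckle protein, differed by -1.09 ± 0.18 with Salmonella and by -0.10 with the sponge. On the list of splicing genes and RNA helicases, 3 of 96 measured genes (3.125%) were among the 173, against 2.31% of all genes. Of its 7 genes that met the conditions on the fall and on the control level, 4 were at least 0.4 higher with the sponge. These were SNRPD3, HNRNPA1, SF3A3 and SNRNP200, with sponge differences of 1.08, 0.80, 0.68 and 0.41.

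Nuclear-encoded mitochondrial genes were a set of 19. In all 19 both treated groups lay wholly below the control, as in 161 of the 173 genes. Their median difference was -1.10 with Salmonella and 0.06 with the sponge, with 11 above 0 and 8 below. SLC25A3, the mitochondrial phosphate carrier, had 12.09, 11.64, 11.64 and 12.02 with the sponge, 11.45, 11.77, 11.67 and 11.86 with Salmonella, and 13.11, 12.76, 12.46 and 12.73 in the control. SLC25A38, a glycine carrier used in haem synthesis, had 6.81, 6.56, 6.75 and 7.07 with the sponge, 6.90, 7.28, 7.06 and 7.18 with Salmonella, and 9.04, 8.55, 8.78 and 8.82 in the control. It was the most lowered mitochondrial gene, at -1.69 ± 0.18, and its sponge difference was -0.31 (95% interval -0.68 to 0.06).

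Mitochondrial ribosomal proteins, which translate the few proteins encoded in mitochondrial DNA, gave MRPS9, MRPS10, MRPS26, MRPL20 and MRPL46. MRPS10 had 9.50, 9.24, 9.02 and 9.38 with the sponge, 9.21, 8.74, 9.05 and 8.76 with Salmonella, and 10.29, 10.05, 9.96 and 9.82 in the control. MRPL20 had 8.95, 8.63, 8.87 and 9.09 with the sponge, 8.49, 8.80, 9.02 and 8.87 with Salmonella, and 10.12, 9.93, 9.73 and 9.73 in the control. Neither gene's treated groups reached the control. MRPS9, MRPS26 and MRPL46 had sponge differences of 0.05, 0.06 and -0.05. Of the 41 measured genes of the mitochondrial ribosome list these 5 (12.2%, against 2.31% of all genes) were the only ones to meet the conditions on the fall and on the control level. The list had a control mean of 8.03, against 6.14 over all genes, and the rule chose only genes of at least 6. The part of the control level in this share was not tested. Of the 41, 14 were called lower, 5 higher and 22 not called with Salmonella, with a median of -0.33, against 17.9% lower and 15.7% higher of all genes and a median of -0.02. In sponge plus Salmonella against Salmonella, 3 were called lower, 5 higher and 33 not called. TFB1M, which methylates mitochondrial ribosomal RNA, differed by -1.04 ± 0.17 with Salmonella.

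Import of proteins made outside the mitochondrion gave 3 genes. TOMM22, a receptor of the outer membrane import pore, had 9.63, 8.66, 9.14 and 9.35 with the sponge, 8.97, 9.46, 9.62 and 9.63 with Salmonella, and 11.09, 10.45, 10.01 and 10.42 in the control. SAMM50, which inserts outer membrane proteins, and DNAJC19, of the inner membrane import motor, had differences of -1.17 ± 0.18 and -1.45 ± 0.30 with Salmonella. Sponge differences were -0.23 for TOMM22, -0.18 for SAMM50 and -0.36 for DNAJC19, with intervals that crossed 0 in each. TOMM20 and PMPCA, other genes of import and processing, met the conditions on the fall and on the control level but were not among the 173. Their sponge differences were 0.71 and -0.45. NDUFB11, a subunit of respiratory complex I, had 10.17, 9.99, 9.99 and 10.50 with the sponge, 9.87, 10.37, 10.47 and 10.72 with Salmonella, and 11.62, 11.36, 11.06 and 11.51 in the control. It was the only gene of the 30 measured in the respiratory chain list (3.33%) to be among the 173, against 2.31% of all genes. DBT, of the branched-chain amino acid dehydrogenase, differed by -1.01 ± 0.16 with Salmonella and by 0.12 with the sponge.

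**Figure D5:**
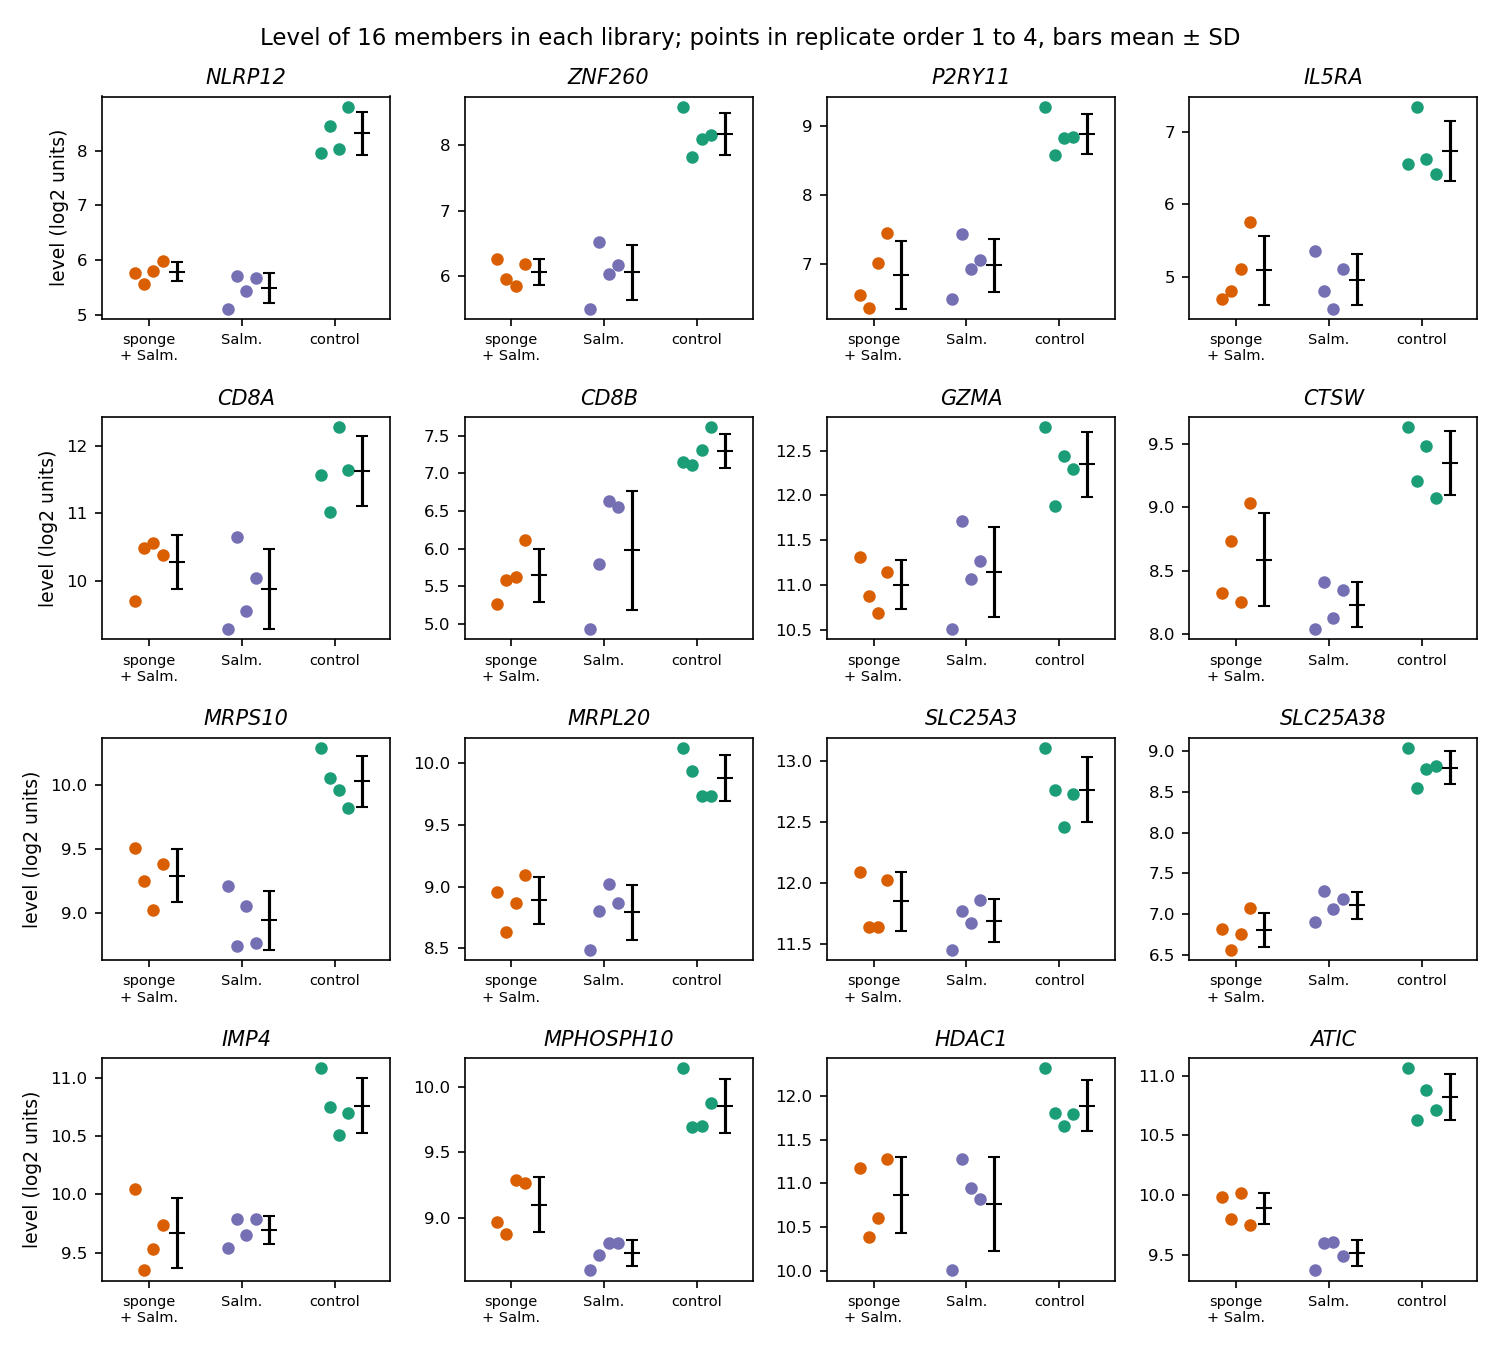
Level in each library (vertical axis, log2 units) of 16 of the 173 genes, in sponge plus Salmonella, Salmonella and control, with points in replicate order and bars at mean ± SD. In each panel the control libraries lie above both treated groups, and in MPHOSPH10 and ATIC the sponge libraries also lie above the Salmonella libraries.

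Genes of the endoplasmic reticulum and Golgi gave 8 members of the early secretory pathway. SSR4, a subunit of the translocon-associated complex, had 11.30, 10.97, 10.75 and 11.19 with the sponge, 11.01, 11.22, 11.20 and 11.37 with Salmonella, and 12.85, 12.11, 12.20 and 12.63 in the control. SRPRB, the beta subunit of the signal recognition particle receptor, differed by -1.23 ± 0.19 with Salmonella and by -0.16 with the sponge. RCN2, a calcium-binding protein of the reticulum, had 8.39, 8.47, 8.23 and 8.29 with the sponge, 8.10, 8.18, 8.54 and 8.60 with Salmonella, and 10.02, 9.58, 9.56 and 9.69 in the control. Its sponge difference was among the best known, -0.01 with an interval of -0.36 to 0.34. Over the set, the median sponge difference was -0.01, with 3 above 0 and 5 below.

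Ubiquitin and protein quality control gave 9 genes, with a median sponge difference of 0.26 and 8 above 0. VCP, the ATPase that pulls ubiquitinated proteins out of membranes and complexes, had 9.15, 8.11, 8.70 and 9.07 with the sponge, 8.14, 8.71, 9.01 and 8.52 with Salmonella, and 9.89, 9.71, 9.60 and 9.49 in the control. NPLOC4, its cofactor, had 7.23, 6.41, 7.01 and 7.08 with the sponge, 7.18, 7.02, 6.72 and 7.21 with Salmonella, and 8.41, 8.14, 8.00 and 8.03 in the control. Both partners were thus lower in every treated library than in any control library. USP7, a deubiquitinating enzyme, differed by -1.05 ± 0.17 with Salmonella and by 0.26 with the sponge. RNF125, a ubiquitin ligase that limits antiviral RNA sensing, differed by -1.31 ± 0.21 with Salmonella and by 0.31 with the sponge. On the list of ubiquitin ligases, conjugating and deubiquitinating enzymes, 3 of 198 measured genes (1.515%) were among the 173, against 2.31% of all genes. Of its 11 genes that met the conditions on the fall and on the control level, 8 were at least 0.4 higher with the sponge.

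Enzymes outside these sets numbered 13. ATIC, which completes purine synthesis, had 9.98, 9.80, 10.02 and 9.75 with the sponge, 9.37, 9.60, 9.61 and 9.49 with Salmonella, and 11.06, 10.63, 10.88 and 10.71 in the control. Sponge libraries stood above all Salmonella libraries but far below the control, with a sponge difference of 0.37 (95% interval 0.08 to 0.67) beside a fall of -1.30 ± 0.14. CBR3, a carbonyl reductase, had 5.77, 5.33, 5.23 and 5.60 with the sponge, 5.55, 5.13, 5.17 and 5.24 with Salmonella, and 7.42, 6.71, 7.25 and 7.15 in the control. NME3, a nucleoside diphosphate kinase, differed by -1.46 ± 0.14 with Salmonella and by 0.24 with the sponge. GAMT, of creatine synthesis, was the nearest inside the upper limit, at 0.40.

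Cilia, centrosome and microtubule genes formed a set of 7, with a median of -1.30 with Salmonella and 0.09 with the sponge. IFT52, of the intraflagellar transport complex, differed by -1.61 ± 0.27 with Salmonella and by -0.35 with the sponge. PCM1, the scaffold of centriolar satellites, differed by -1.11 ± 0.17 with Salmonella and by 0.27 with the sponge. SPEF2, a sperm flagellar protein, had 5.64, 5.55, 5.68 and 5.44 with the sponge, 4.92, 4.94, 4.75 and 6.44 with Salmonella, and 7.94, 5.86, 5.92 and 6.79 in the control. Single libraries set its means, since Salmonella library 4 and control library 1 stood well above the rest of their groups. Its Salmonella minus control difference was -1.36 ± 0.44, but -0.93 without control library 1, and its sponge difference was 0.32, but 0.71 without Salmonella library 4. Either value would have put it outside the rule.

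CASP2, an initiator caspase, differed by -1.199 ± 0.19 with Salmonella and by 0.29 with the sponge, and SIVA1, a death receptor partner, by -1.07 ± 0.18 and -0.16. AHNAK, a very large scaffold protein, had 5.50, 5.003, 5.53 and 5.63 with the sponge, 6.11, 5.92, 4.88 and 5.60 with Salmonella, and 7.36, 7.73, 7.04 and 7.43 in the control. EMD, emerin of the inner nuclear membrane, differed by -1.35 ± 0.15 with Salmonella and by 0.21 with the sponge. RAB11FIP5, of recycling endosomes, differed by -1.22 ± 0.34 with Salmonella and by -0.08 with the sponge. These belong, apart from the caspase and SIVA1, to 52 genes given no set.

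Finally, 7 genes are best known from tissues other than blood. F12, coagulation factor XII of the liver, had 4.82, 5.39, 6.10 and 5.87 with the sponge, 5.40, 5.62, 5.68 and 5.49 with Salmonella, and 7.32, 7.49, 7.79 and 7.91 in the control. ANG, the secreted ribonuclease angiogenin, had 5.22, 6.08, 5.89 and 5.89 with the sponge, 5.75, 5.75, 5.81 and 6.09 with Salmonella, and 7.50, 7.69, 7.59 and 8.03 in the control. Both genes were uniformly higher in the control. ADIPOQ, the fat cell hormone adiponectin, had 4.77, 4.59, 5.22 and 4.61 with the sponge, 5.37, 4.75, 4.59 and 5.51 with Salmonella, and 7.46, 5.75, 6.37 and 6.45 in the control. In 10 of the 173 genes, ADIPOQ, ZIC5, ZNF639, SPEF2, TUBG2, ELOVL4, CCNI2, TCL1B, CHST13 and PAOX, the control SD was above 0.7. In 6 of these 10 control library 1 was the highest of its group, as it was in 102 of all 173. Without that library the Salmonella minus control difference was -0.92 in place of -1.395 for ZNF639 and -0.81 in place of -1.36 for ZIC5, both zinc finger proteins. Over the 7 genes the median difference was -1.62 with Salmonella and -0.08 with the sponge, with 6 below 0, where 61 of all 173 were below 0.

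The thresholds cut through a continuous range. Nearest inside the fall were SRF and DDX18 at -1.0048 and EPM2AIP1 at -1.0093, and nearest outside were TFF3 at -0.9951, FCRLB at -0.9942 and PPDPF at -0.9941. For the sponge difference, GAMT at 0.3997, CD8A at 0.3994 and GLCCI1 at -0.3964 were inside, and ZSCAN21 at -0.4008, STAB1 at -0.4016 and SNRNP200 at 0.4082 outside. For the control mean, SLC35B4 at 6.0319, ZNF365 at 6.0478 and ZNF639 at 6.0557 were inside, and CAND2 at 5.9775, SPP1 at 5.89 and TAOK2 at 5.8574 outside.

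Of the 31 gene lists examined, 17 held at least 1 of the 173 genes and 14 held none, and 124 of the 173 were on no list. The 32 measured reported miR-124 targets and the 22 measured interferon-stimulated genes held 0 of them, and since only 2.31% of all genes were among the 173, nothing is read from a count of 0 in lists of this size. The genes lay on every chromosome from 1 to 18 and on X except 8, with 248 measured, and 10, with 151, and chromosome 6 held 23 of its 708.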

How the data were processed

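RNA from 12 libraries, 4 per group, was sequenced by the authors. The submitters' processing notes name Bowtie, R 3.4.2 and build Sscrofa11.1. How reads were counted and normalized is not given in the sources used. The deposited table holds 1 value per gene and library on a log scale, and the base, not stated, was taken as log2. No counts were used, so depth and counting error are unknown. Count models were an option of the planned design and were not used, because the values are on a log scale. All 12 libraries entered 1 fit with limma 3.58.1 (R 4.3.3) with group means, a variance trend and Benjamini-Hochberg adjustment over 7480 genes and a threshold of 0.05. The fit was tested on simulated data. SE and 95% intervals come from that fit. Named genes were those with the 8 lowest Salmonella minus control values, those highest in control on each list (up to 3, or 2 for gene families), those with the 4 shortest and 2 longest intervals, and those nearest each threshold. One of these genes is not reported here. Other genes are described by set, chosen after their values were seen, and so were the 13 sets and the silent genes. The 173 genes and the lists were chosen with earlier results of these data known. Gene names and coordinates were matched in RefSeq tables of Sscrofa11.1, for 172 of 173 genes by name and 169 with coordinates. Alternatives were other thresholds, group medians, median centring, quantile normalization, no variance trend, a filter at a mean of 5, fits of only 2 groups, a replicate block and leaving out each library.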

Additional observations from a re-analysis of the deposited data

Results flagged for a closer look

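In 144 groups of 4 libraries, 6 had a library whose gap to the nearest of the others passed Dixon's critical value at 95%, which chance passes in about 1 in 20 groups. The mean over the 173 genes was lowest in Salmonella library 1, at 7.06, with 7.31 the nearest. For DDX18 the same library had 9.17, with 9.50 the nearest. SPEF2 was highest in Salmonella library 4, at 6.44, with 4.94 the nearest. SMARCE1 was highest in sponge plus Salmonella library 1, at 8.92, with 8.01 the nearest. LSM14A was lowest in sponge plus Salmonella library 2, at 9.42, with 10.03 the nearest. SNRPF was highest in control library 1, at 11.94, with 11.44 the nearest.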

How the results depend on the processing

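The number of genes chosen depended on the fall required, with 295 at -0.8 or lower and 98 at -1.2 or lower in place of 173. Median centring gave 236 genes, of which 171 were among the 173, group medians gave 151 (125 shared) and quantile normalization 173 (153 shared). Leaving out 1 library at a time gave 158 to 202. Genes called in sponge plus Salmonella against Salmonella were 0, but 1 without the variance trend, 5 after quantile normalization and 0 to 3 leaving out 1 library, the 3 without sponge plus Salmonella replicate 2. The cause was not tested. Calls lower with Salmonella were 169 to 173 leaving out 1 library and calls lower with sponge plus Salmonella against control 169 to 173. The median Salmonella minus control was -1.26 to -1.15 and the median sponge difference 0.02 to 0.18 leaving out 1 library. Of 1316 single-gene values under alternatives, 1315 stayed within the spread of the main value and 1, the sponge difference of SLC25A3 after quantile normalization, moved. Staying within the spread does not mean an equal size or sign. The SPEF2 sponge difference counted as unmoved at 0.32 and at 0.71 without Salmonella library 4. Sponge differences near 0, such as that of F12 without sponge library 1, did not all keep their sign. With the replicate block, 172 genes were called lower with Salmonella, 0 with the sponge and 172 lower with sponge plus Salmonella against control. Same-numbered libraries of different groups had residual correlations of -0.36 to 0.377 over 12 pairs, and differently numbered ones of -0.419 to 0.501 over 36. The same-numbered libraries did not stand apart, so the numbers were not taken as pairs. Alternatives for counts or linear values were not run, because the values are on a log scale. Depth is unknown, and low values near the silent genes limit the falls that can be seen.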
